A study of Mus musculus with 4 samples.

Results

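The 7 genes described here encode the enzymes at the early control points of glycolysis in mouse embryonic stem cells. Pfkl, Pfkm and Pfkp encode the liver, muscle and platelet subunits of phosphofructokinase-1 (PFK-1). Hk1, Hk2 and Hk3 encode hexokinases, and Pfkfb3 encodes an enzyme that makes an activator of PFK-1. The genes were taken by symbol, from families chosen with earlier results of these data known, and all 7 were found among the 22492 gene symbols of the deposited expression tables, each in 1 row.

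The study compared 2 genotypes of E14Tg2a, a stem cell line derived from a mouse blastocyst. WT is the unmodified line. TetTKO lacks the Tet dioxygenases, which oxidise 5-methylcytosine (5mC), through mutation of Tet1, Tet2 and Tet3 together. Per the labels' protocols, the knockout was made in 2i medium (with the inhibitors PD0325901 and CHIR99021) by transient transfection of px330 vectors carrying guides to the 3 genes, followed by puromycin, and mutant clones were picked. How many clones the libraries hold is not given in the sources used here, nor whether WT passed through the same transfection and selection. Both lines were then moved to gelatin and a medium that holds 15% serum and LIF at 1000 units/ml, and 17 days was the shortest time there. Each genotype had 1 whole-genome bisulfite library and 1 RNA-seq library. No value below therefore has a replicate check, no p-value was computed, and differences are described by size alone.

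Hexokinases trap glucose in the cell as glucose phosphate, and PFK-1 adds the second phosphate in the step that commits the sugar to glycolysis. PFK-1 works as a tetramer whose subunits can mix, and the subunit types differ in how strongly metabolites activate or inhibit them. Embryonic stem cells are known for high glycolytic activity even with oxygen present, with hexokinase II as a main hexokinase. PFKFB enzymes make and remove the sugar bisphosphate that is the strongest known activator of PFK-1.

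The RNA libraries held 10458 genes of at least 1 FPKM in WT and 10740 in TetTKO. FPKM are fragments scaled by the length of the transcript and the mapped reads of the library, so levels of different genes can be set side by side. The bisulfite libraries held 132794183 and 150132176 read calls over the same 14323377 CpGs, with median coverages of 8 and 10. RNA of Tet1 was 15.06 FPKM in WT and 4.36 in TetTKO, RNA of Tet2 was 14.86 and 4.13, and RNA of Tet3 was under 1 FPKM in both. An RNA level does not show whether a protein is made. All 8 markers of pluripotent cells were present in both libraries, with a sum of 6055 FPKM in WT and 5960 in TetTKO. Dppa5a (3211 and 3344 FPKM) and Pou5f1 (1178 and 1092) gave most of that sum. Of the 8, 3 were higher and 5 lower in TetTKO, beside 48.9% higher and 51.0% lower over all genes. The lower ones include Esrrb (49.32 and 26.43), Nanog on chromosome 6 (116.29 and 71.02) and Zfp42 (698.32 and 513.35). Marker lists of tissues known for single isozymes were near 0. The summed levels were 6.42 and 6.08 FPKM for 9 myeloid genes, 1.19 and 3.30 for 6 skeletal muscle genes, 0.39 and 0.58 for 5 hepatocyte genes, 0.34 and 0.60 for 4 red cell genes, and 1.90 and 2.66 for 8 fibroblast genes. Of the myeloid sum, Cd68 alone gave 6.29 and 5.50 FPKM. The 6 primitive endoderm markers, none at 0, were all higher in TetTKO, with sums of 9.01 and 34.33 FPKM. Of these sums, Col4a1 alone gave 6.44 and 25.35 FPKM. The part of such cells in the levels below was not tested.

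The sequences that lie directly before the start sites of 4 members are shown first, because Pfkp, Pfkl and Hk2 carry most of the RNA described below and Hk3 is their silent counterpart. Each is the 250 bases before a RefSeq start site, 5′ to 3′ on the gene's strand, from the GRCm38.p6 build. Capitals mark the CpGs whose methylation was read in both bisulfite libraries. The sequences were placed on the mm9 CpG lists by the spacing of their CpGs. All 4 genes read on the minus strand.
Pfkp, mm9 chr13:6648018-6648267: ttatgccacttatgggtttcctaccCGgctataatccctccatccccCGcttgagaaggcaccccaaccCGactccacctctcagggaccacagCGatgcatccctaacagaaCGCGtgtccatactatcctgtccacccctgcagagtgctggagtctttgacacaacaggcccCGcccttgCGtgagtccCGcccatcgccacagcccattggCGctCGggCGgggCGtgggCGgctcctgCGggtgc
Pfkl, mm9 chr10:77472553-77472802: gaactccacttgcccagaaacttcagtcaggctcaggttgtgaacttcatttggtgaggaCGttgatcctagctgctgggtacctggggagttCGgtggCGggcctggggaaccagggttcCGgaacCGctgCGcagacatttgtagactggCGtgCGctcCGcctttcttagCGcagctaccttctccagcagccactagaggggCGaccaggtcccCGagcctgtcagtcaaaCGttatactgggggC
Hk2, mm9 chr6:82724449-82724698: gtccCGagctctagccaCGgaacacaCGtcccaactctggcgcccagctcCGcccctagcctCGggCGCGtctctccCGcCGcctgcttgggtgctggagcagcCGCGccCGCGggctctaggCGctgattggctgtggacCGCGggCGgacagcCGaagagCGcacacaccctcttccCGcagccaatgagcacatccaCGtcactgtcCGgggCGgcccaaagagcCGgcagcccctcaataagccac
Hk3, mm9 chr13:55122747-55122996: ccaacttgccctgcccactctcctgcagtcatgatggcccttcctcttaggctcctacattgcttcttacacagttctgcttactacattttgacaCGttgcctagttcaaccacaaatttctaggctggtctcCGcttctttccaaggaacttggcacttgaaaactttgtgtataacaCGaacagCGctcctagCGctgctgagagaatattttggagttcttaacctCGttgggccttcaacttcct
The first 3 are rich in CpG, with 16, 13 and 25 CpGs and a G+C content of 62.8%, 59.2% and 69.6%, whereas Hk3 has 6 CpGs and 47.2%. The GC box letters GGGCGG, searched on both strands, occurred 4 times before Pfkp and 3 times before Hk2, and did not occur before Pfkl or Hk3. Of 32851 promoter sequences of the same length, 32.7% held these letters. CCAAT occurred 1 time before Pfkp, 2 times before Hk2 and in 33.8% of all promoters, and TATAAA occurred in none of the 12 start-site sequences of the members and in 12.4% of all promoters. The E-box letters CACGTG, found in 6.02% of promoters, occurred before start site 1 of Pfkm and start site 2 of Pfkfb3. These letter matches describe the sequences only.

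In WT the PFK-1 subunits were led by Pfkp, closely followed by Pfkl, and in TetTKO the order was the opposite. Pfkp, the platelet-type subunit (mm9 chromosome 13, 6579120 to 6647970), was at 112.19 FPKM in the WT library and 46.99 FPKM in the TetTKO library, which is 2.39-fold lower. Pfkl, the liver-type subunit (chromosome 10, 77449694 to 77472541), was at 97.42 FPKM in WT and 170.18 FPKM in TetTKO, 1.75-fold higher. Pfkm, the muscle-type subunit (chromosome 15, 97923020 to 97962878), was the lowest of the 3 in both libraries, at 8.37 and 17.15 FPKM. In bulk RNA, fewer cells that use a gene and less RNA per cell cannot be told apart.

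The PFK-1 pool kept a similar summed level while its make-up differed. The 3 subunit genes summed to 217.98 FPKM in WT and 234.32 FPKM in TetTKO, a ratio of 1.07. Pfkp made up 51.5% of the WT sum and 20.1% of the TetTKO sum. Pfkl made up 44.7% and 72.6%, and Pfkm 3.84% and 7.32%. The ratio of Pfkp to Pfkl FPKM was 1.15 in WT and 0.276 in TetTKO, a 4.17-fold difference. These are shares of RNA, and subunit protein was not measured.

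**Figure D1:**
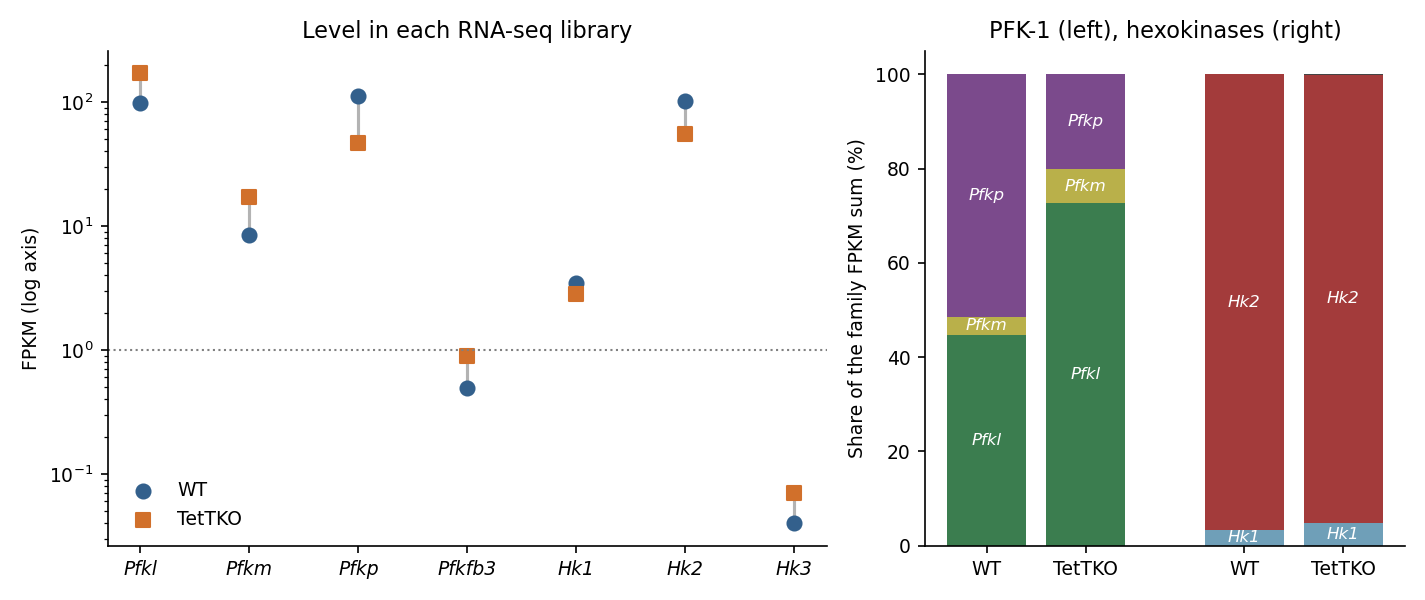
Left, FPKM (log axis) of each member in the WT (circle) and TetTKO (square) RNA-seq library, 1 library each, with a dotted line at 1 FPKM; right, stacked shares of the FPKM sum of the PFK-1 genes and of the hexokinase genes in percent. Pfkp and Hk2 are lower in TetTKO, Pfkl and Pfkm are higher, and the PFK-1 bar turns from 51.5% Pfkp to 72.6% Pfkl.

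The hexokinase pool was almost all Hk2 in both libraries, and its sum was lower in TetTKO. Hk2, the hexokinase usual in glycolytic and fast-growing cells (chromosome 6, 82675021 to 82724448), was at 102.18 FPKM in WT and 55.09 FPKM in TetTKO, 1.85-fold lower. Hk1, the hexokinase found in most tissues (chromosome 10, 61731603 to 61842656), was at 3.47 and 2.81 FPKM. Hk3, usually a gene of myeloid cells (chromosome 13, 55107346 to 55122746), was at 0.04 and 0.07 FPKM, too low to compare. The 3 hexokinases summed to 105.69 FPKM in WT and 57.97 FPKM in TetTKO, 1.82-fold lower. Hk2 held 96.7% of that sum in WT and 95.03% in TetTKO, and Hk1 held 3.28% and 4.85%. The Hk2 share differed by -1.65 points, beside -31.4 points for the Pfkp share of PFK-1. At 96.7% of the WT sum, the Hk2 share had little room to differ in points. These points therefore do not show whether the hexokinase make-up differed less than that of PFK-1. The ratio of Hk2 to Hk1 FPKM was 29.4 in WT and 19.6 in TetTKO, with Hk1 low in both libraries. Bisulfite coverage of the Hk2 locus also differed between the libraries, as given below.

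Pfkfb3 (chromosome 2, 11393058 to 11475556) was under 1 FPKM in both libraries, at 0.49 FPKM in WT and 0.89 FPKM in TetTKO. It stood with Pfkfb1 (3.19 and 2.87 FPKM), Pfkfb2 (2.95 and 3.15) and Pfkfb4 (0.76 and 0.76), the other genes of bifunctional enzymes that make and remove the PFK-1 activator. The 4 genes summed to 7.39 and 7.67 FPKM. Pfkfb3 was 6.63% of the sum in WT and 11.6% in TetTKO, so that Pfkfb1 and Pfkfb2 held most of this low level in both libraries.

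Differences were also placed among all genes on the scale log2((TetTKO + 1)/(WT + 1)), which understates the difference of genes with low FPKM. Of the 7 members, 5 had at least 1 FPKM in a library and were counted. Pfkp, at -1.24, was the 1 member at least 2-fold lower, against 0.847% of the 10984 genes counted. No member was at least 2-fold higher, against 1.77%. Pfkm, at 0.95, lay just short of 2-fold on this scale, although its plain FPKM ratio was 2.05, and it passed with a pseudocount of 0.1 FPKM. At 1.5-fold, Pfkp and Hk2 were lower, against 5.23% of genes, and Pfkl and Pfkm were higher, against 6.53%.

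At their own level of expression, the larger members lay near the edge of what other genes did. Among 845 genes within 1.5-fold of the mean level of Pfkp, none had a lower value, and the central 90% of them lay between -0.62 and 0.41. Hk2, at -0.88, had 15 of 856 genes of like level at or below it, itself included. Pfkl, at 0.80, had 5 of 519 at or above it, itself included, and Pfkm 34 of 2100. Hk1, at -0.23, lay well inside its band, which ran from -0.58 to 0.77. These bands describe a single pair of libraries and hold biological and technical differences alike.

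**Figure D2:**
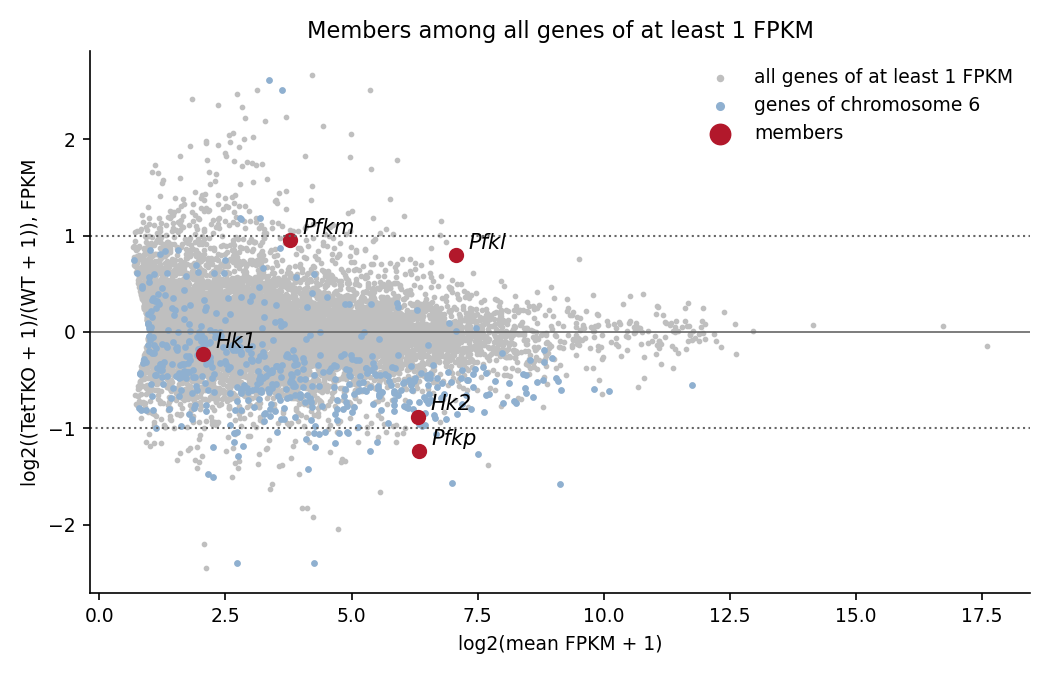
Each point is a gene of at least 1 FPKM in either library, with log2(mean FPKM + 1) on the horizontal axis and log2((TetTKO + 1)/(WT + 1)) on the vertical axis; genes of chromosome 6 are blue, members red, and dotted lines mark 2-fold. Pfkp lies at -1.24 below the dotted line and Hk2 at -0.88 among the blue points, whose median is -0.43.

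The genes with the most similar levels over the 2 libraries were found by Euclidean distance in log2(FPKM + 1). For Pfkp they were Cdca3 (106.0 and 54.24 FPKM), Grcc10 (110.69 and 55.70) and Hk2 (102.18 and 55.09), all 3 on chromosome 6 although Pfkp is not. For Hk2 they were Cdca3, Grcc10 and Fkbp9 (99.28 and 59.52), also all on chromosome 6. For Pfkl they were Enah (102.14 and 149.03), Senp3 (111.71 and 157.70) and Cbx1 (104.38 and 143.98). For Pfkm they were Sfmbt2, Gm13251 and Abcb1b, and for Hk1 Gpr137, Mfsd7b and Rps6ka5. With only 2 libraries, such nearness says that a gene has a like level and a like difference and no more.

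Read coverage of the bisulfite libraries, which reflects how much DNA of a locus was sequenced, moved with the RNA of Hk2 and Pfkl. This was looked at after the RNA values were seen. Relative coverage starts from the TetTKO to WT ratio of mean reads per listed CpG over the gene and 10 kb on each side. That ratio was divided by its median over autosomal bins of 50 kb. Relative coverage was 0.711 at Hk2, where 98.2% of 20839 genes had a higher ratio, and 1.44 at Pfkl, where 0.0672% of genes had a higher one. Pfkp stood at 0.950, Pfkm at 0.992, Hk1 at 0.992, Pfkfb3 at 1.03 and Hk3 at 0.996. The listed CpGs had at least 5 reads in both libraries, which limits how low this ratio can be measured.

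The Hk2 value was that of its chromosome. Chromosome 6 had 1.34-fold the coverage of the median autosome in WT and 0.982-fold in TetTKO, and the 514 counted genes of chromosome 6 had a median log2 difference of -0.43. Hk2, at -0.88, differed from that median by -0.45. Less the log2 relative coverage of its own locus, its difference was -0.39. How much of the lower Hk2 RNA goes with the coverage of chromosome 6 was not tested.

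The Pfkl value belonged to a bounded stretch of chromosome 10. In bins of 50 kb, 16 neighbouring bins from 77450000 to 78249999 had a mean ratio of 1.47, from 1.40 to 1.59. This stretch of 800 kb holds the start site of Pfkl. Its edges are those of the bins, so where the higher coverage begins near Pfkl was not located. The bin on the Pfkl side, which holds the far end of the gene, had 1.17, and the bin on the other side 0.996. Of 47153 autosomal bins, 21 (0.0445%) reached 1.25. The 11 other counted genes of the stretch, which include Dnmt3l, Cstb and Trappc10, were all higher in TetTKO RNA, with a median log2 difference of 0.42 and a range from 0.06 to 0.76. Of 71 counted genes within 2 Mb on either side, 27 were higher, with a median of -0.12. Less the log2 relative coverage of its locus, the Pfkl difference was 0.27, against 0.80 as deposited. Whether the DNA content of this stretch has a part in the Pfkl RNA was not tested.

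With each TetTKO FPKM divided by the relative coverage of its locus, the PFK-1 shares in TetTKO were 63.9% for Pfkl, 26.8% for Pfkp and 9.36% for Pfkm. Pfkp, whose locus had a ratio near 1, was at -1.16 on the log2 scale. The PFK-1 sum was then 0.847 of the WT sum in place of 1.07, and the hexokinase sum 0.761 of it in place of 0.548. Hk2 in TetTKO was then at 77.5 and Hk1 at 2.83, beside 102.18 and 3.47 FPKM in WT. The lead of Pfkl over Pfkp in TetTKO was present with and without this division, whereas the ratio of the PFK-1 sums lay above 1 without it and below 1 with it.

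**Figure D3:**
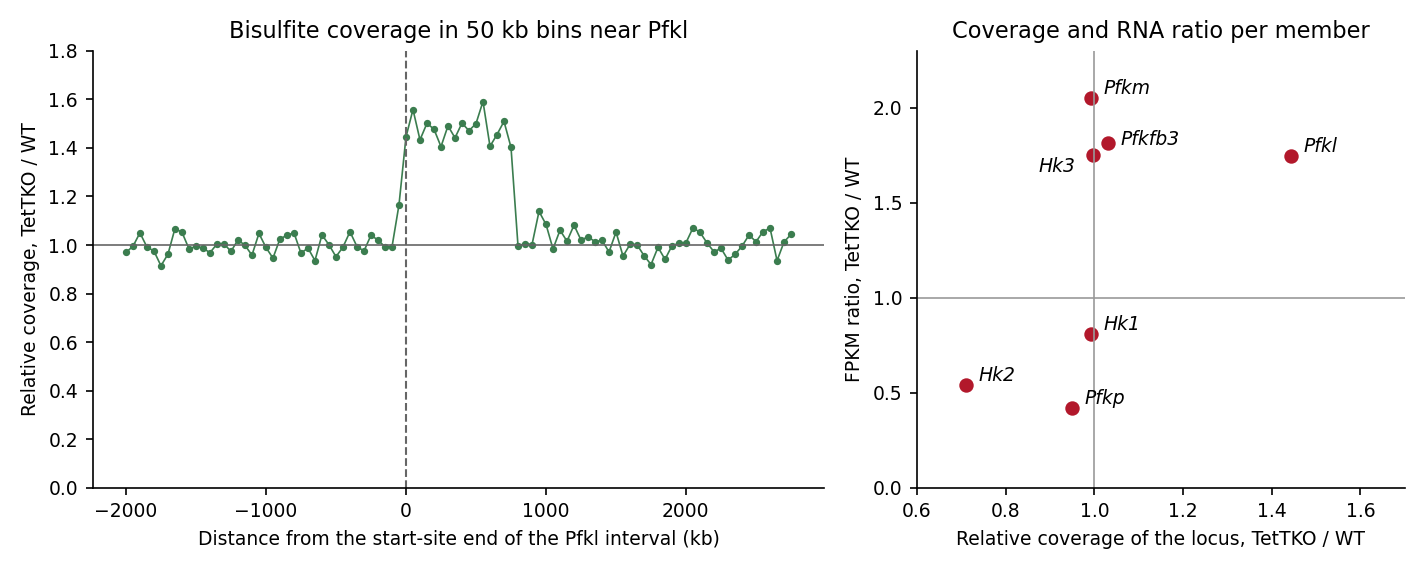
Left, relative bisulfite coverage (TetTKO over WT) in 50 kb bins against the distance in kb from the start-site end of Pfkl, marked by the dashed line; right, for each member, the FPKM ratio (TetTKO over WT) against the relative coverage of its locus. The 16 bins from the one with the Pfkl start site onward sit between 1.40 and 1.59. Pfkl (1.44) and Hk2 (0.711) lie away from the vertical line at 1, while Pfkp (0.950) and Pfkm (0.992) lie near it.

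Methylation was then read over each gene and 10 kb on each side, as the mean over CpGs of the share of methylated reads. Some of these regions also hold parts of other genes, such as Senp1 and Asb8 at Pfkm, Pitrm1 at Pfkp and Tacr2 at Hk1. Bisulfite reads 5mC and its oxidised form 5-hydroxymethylcytosine alike. All listed CpGs together had a mean of 69.5% (WT) and 65.0% (TetTKO), and the median difference over 21397 gene intervals was -2.97 points (TetTKO minus WT), with the central 90% between -9.97 and 4.60 points. Hk2 went the other way, with 47.1% in WT and 54.1% in TetTKO over 863 CpGs, a gain of 7.01 points, and 1.63% of gene intervals gained more. From pooled reads the Hk2 region was at 44.9% (95% exact interval 43.9 to 45.8) in WT and 51.8% (50.7 to 52.8) in TetTKO. Hk2 also had the lowest methylation of the 7 regions in both libraries. These intervals are exact binomial (Clopper-Pearson) intervals, cover counting error only, and are too narrow, since PCR copies and CpGs of 1 read are not independent.

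The other regions differed less. Pfkl was at 60.1% in WT and 56.9% in TetTKO, Pfkm at 63.0% and 60.2%, and Pfkfb3 at 59.7% and 57.3%, all near the median gene. Pfkp was at 64.5% and 63.9%, a difference of -0.60 points, which was 0.78 points over the interval without its flanks. Hk3 was at 73.7% and 76.1%, 2.43 points higher, and Hk1 at 64.7% and 65.1%, 0.38 points higher. With CpGs of at least 10 reads only, the differences were -2.98 points at Hk1 and -0.14 points at Hk3, so the direction at Hk1, Hk3 and Pfkp depended on such choices.

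Fixed 1 kb windows with at least 5 CpGs showed where methylation differed within the genes. The 7 regions held 470 windows, of which 12 gained at least 30 points in TetTKO, or 2.55%, against 0.672% of 1223928 windows in the genome. No member window lost 30 points, against 0.603%. Hk2 held 4 of the gained windows, Pfkp 3, Pfkfb3 and Hk1 2 each, Hk3 1, and Pfkl and Pfkm none. The count depended on the settings. Among CpGs of at least 10 reads, 3 of 126 windows gained 30 points (2.38%, genome 1.24%) and 1 lost them (genome 0.314%). Among windows of at least 10 CpGs, 7 of 307 gained (2.28%, genome 1.07%) and 0 lost (genome 0.0744%). At 20 points, 38 windows gained (8.09%, genome 2.41%) and 21 lost (4.47%, genome 6.41%). In each of these settings the share of member windows that gained was above that of the genome. The same held with at least 3 CpGs (13 gained and 2 lost, genome 0.605% and 1.63%), with windows shifted by 500 bp (13 and 3, genome 0.673% and 0.618%) and with differences centred on the median window (29 and 0, genome 1.47% and 0.118%). At Hk2, 44 of 67 windows were higher in TetTKO (65.7%), against 27.3% of windows in the genome. Windows of the genome were not matched to those of the members in CpG density or in WT methylation. At least 10 CpGs were held by 307 of 470 member windows and by 433074 of 1223928 genome windows. The part of this in the shares above was not tested. Neighbouring windows share cells and libraries and are not replicates.

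The gained windows lay inside the genes in all but 1 case. In Pfkp they began at 6625000 (32.7% in WT and 76.5% in TetTKO), 6630000 (50.0% and 80.4%) and 6642000 (23.1% and 58.3%), with centres 22470, 17470 and 5470 bases from the start-site end of the gene. In Hk2 they began at 82694000 (38.6% and 92.0%), 82712000 (19.0% and 54.9%), 82719000 (21.7% and 53.2%) and 82720000 (7.06% and 37.4%). The Hk2 window at 82694000 had the largest gain of all 470, 53.4 points from 70 and 50 reads. The windows of Hk1 were at 61745000 (13.3% and 54.8%) and 61793000 (17.9% and 63.4%), that of Hk3 at 55113000 (14.7% and 46.8%), and those of Pfkfb3 at 11474000 (11.8% and 42.7%) and, just outside the gene, at 11477000 (34.5% and 65.9%). Some of these windows rest on few reads, with 44 and 51 at 6630000, 30 and 31 at 61745000 and 29 and 41 at 11477000. At 11477000 the exact intervals of the libraries overlap (17.9 to 54.3 and 49.4 to 79.9). As a mean over CpGs, 6630000 was at 58.3% and 84.2%, short of 30 points. Exons, introns and enhancers in these windows were not analysed here.

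Hk2 and Hk1 shared a pattern in which the start site was low in both libraries and the stretch after it filled in TetTKO. These distance bands were chosen after the windows were seen. In Hk2, the first 2 kb were at 0.44% in WT and 0.72% in TetTKO. The stretch from 2 to 5 kb was at 4.17% (95% exact interval 2.72 to 6.10) and 24.8% (21.0 to 29.0), and that from 5 to 15 kb at 28.3% and 50.4%. From 15 to 30 kb the values were 56.2% and 64.7%. Hk1, read from its inner start site (site 2, 39487 bases inside the interval), was at 18.9% and 42.7% from 2 to 5 kb and at 44.0% and 62.5% from 5 to 15 kb. Pfkp had smaller gains, 51.7% to 59.7% from 5 to 15 kb and 60.0% to 69.4% from 15 to 30 kb. Pfkl was already at 82.9% from 5 to 15 kb in WT and was at 77.8% in TetTKO. Pfkfb3 was at 5.37% and 15.9% in the first 2 kb and at 89.8% and 73.7% from 2 to 5 kb. From 2 to 5 kb Pfkm was at 62.2% and 54.3% and Hk3 at 79.9% and 70.1%. From 5 to 15 kb Pfkm was at 78.1% and 65.9%, Pfkfb3 at 67.4% and 68.1% and Hk3 at 65.4% and 72.3%. The same bands were not read over other genes, so how common the pattern is was not tested.

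**Figure D4:**
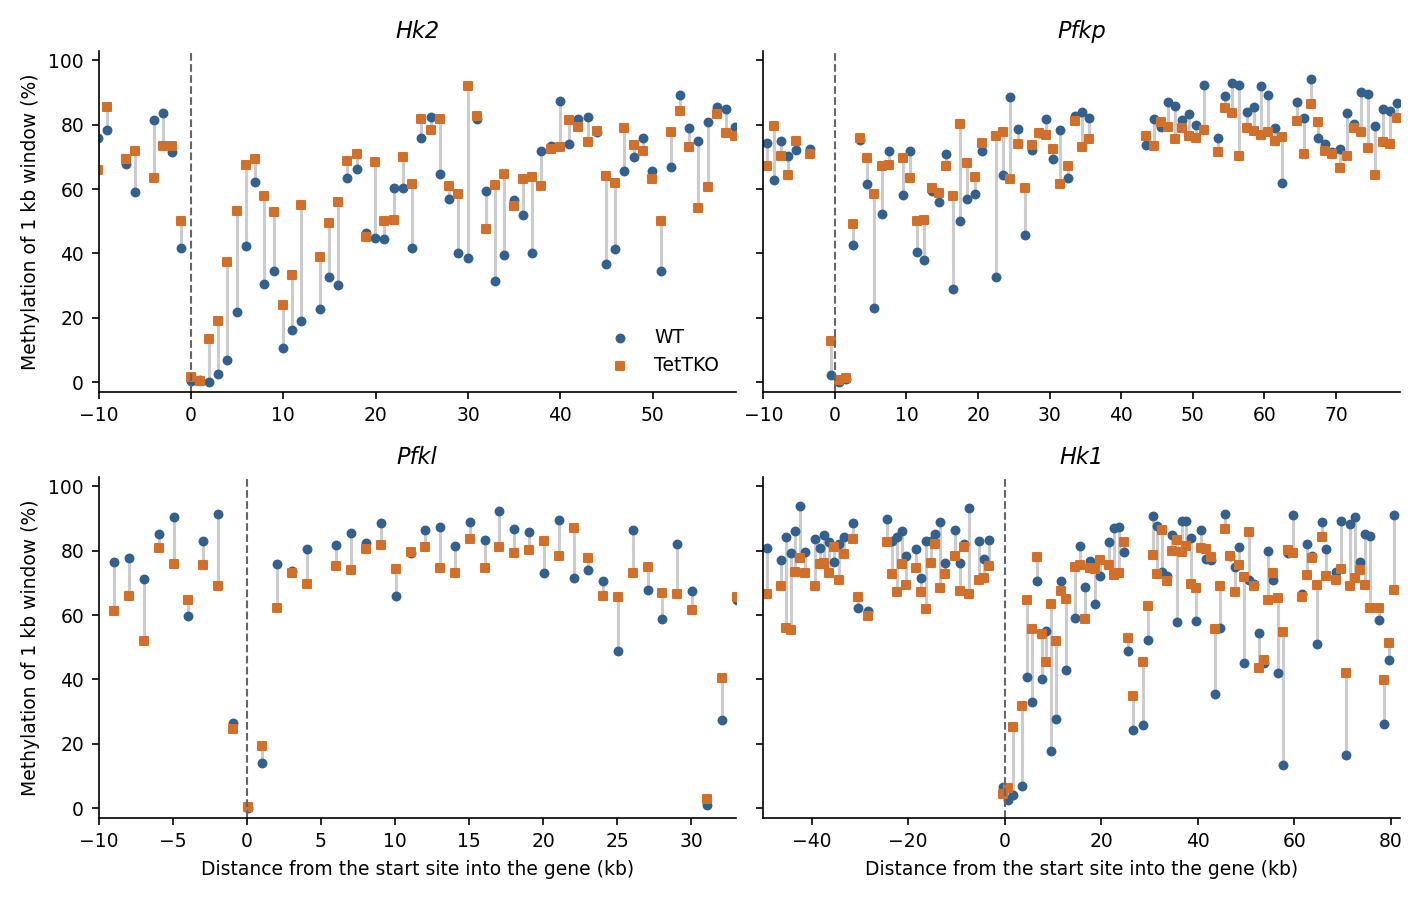
Methylation in percent of each 1 kb window of at least 5 CpGs in WT (circle) and TetTKO (square) against the distance in kb from the start site into the gene, for Hk2, Pfkp, Pfkl and Hk1 (from its inner start site); grey bars join the libraries, and the dashed line marks the start site. In Hk2 the squares lie above the circles from 2 to 15 kb (4.17% to 24.8% and 28.3% to 50.4% by band), whereas the Pfkl body is high in both libraries.

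Windows that were partly methylated in WT gained on average across the genome, and 5 of the 7 members had a larger mean gain than the genome in this class. To lessen the overlap of class and difference, each window was sorted into a WT class by every other CpG, and its difference was read from the rest. CpGs of 1 read can fall in both parts, so the split does not keep class and difference fully apart. Of 92976 windows of the genome that were 10% to 50% methylated in WT, the mean difference was 8.97 points. At Hk2 it was 18.4 points over 25 windows, of which 22 were higher, at Hk1 16.4 points over 20 windows, of which 17 were higher, and at Pfkp 21.2 points over 7 windows, all higher. Pfkfb3 gained 10.9 points over 6 windows, of which 5 were higher, and Hk3 29.3 points in its 1 window. The same class gained 7.71 points at Pfkl over 4 windows and 4.54 points at Pfkm over 9. In windows of 80% or more in WT the mean difference was -8.22 points in the genome and lay between -9.03 and -6.44 points in 6 of the 7 members, with -3.57 points over 11 windows at Hk2. Hk2 had 25 of its windows in the partly methylated class and Pfkl 4.

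The CpG-rich start sites were nearly unmethylated in both libraries. In the 250 bases printed above, Pfkp had 0 of 158 methylated reads in WT (exact interval up to 2.31%) and 2 of 137, or 1.46%, in TetTKO (0.18 to 5.17). Pfkl had 0 of 109 and 0 of 193 reads (up to 3.33% and 1.89%). Hk2 had 2 of 258, or 0.775%, and 0 of 261 (up to 1.40%). At these CpGs the intervals of the libraries overlapped for all 3 genes. The 31 CpGs of the 1 kb window at 6648000, which holds the printed Pfkp bases and the stretch upstream of them, were at 2.12% (0.78 to 4.56) in WT and 12.9% (9.41 to 17.1) in TetTKO. At Hk2, 5 neighbouring windows from 82720000 to the start site were under 10% in WT. In the middle one, at 82722000, 18 CpGs were at 0 of 226 reads in WT (up to 1.62%) and 13.4% (9.09 to 18.8) in TetTKO. The gain was 16.4 points in the next window into the gene and 30.3 points in the one after it, whereas the windows at 82723000 and 82724000, nearest the start site, were under 2% in both libraries.

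The remaining start sites ranged from no methylated read to most reads methylated. Hk1 site 2 had 0 of 76 and 0 of 153 methylated reads, and Pfkfb3 was at 1.18% and 2.86% at site 1 and at 1.55% and 2.19% at site 2, 51839 bases inside the gene. Sites 2 and 3 of Pfkm, whose windows overlap, had none in 24 to 29 reads. Pfkm site 1, with 2 CpGs, had 2 of 15 reads (13.3%, 1.66 to 40.5) in WT and 1 of 22 (4.55%, 0.12 to 22.8) in TetTKO, too few reads to compare. Pfkm site 4, with 3 CpGs, was at 39.1% (19.7 to 61.5) in WT and 62.5% (40.6 to 81.2) in TetTKO, and these intervals overlap. Hk3, with 6 CpGs, was at 93.9% (83.1 to 98.7) of 49 reads in WT and 75.9% (62.8 to 86.1) of 58 in TetTKO. These Hk3 intervals also overlap, and Hk3 RNA was near 0 in both. Of 90 member windows with more than 15 CpGs, 16 (17.8%) were under 10% methylated in WT and 12 (13.3%) in TetTKO, against 21.0% and 16.1% of 112416 such windows in the genome. Some of these low windows overlap other genes. Examples are 77441000 near Pfkl (1810043G02Rik, 1.11% and 2.89%) and 97923000 at Pfkm (Senp1, 0.19% and 0.14%).

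**Figure D5:**
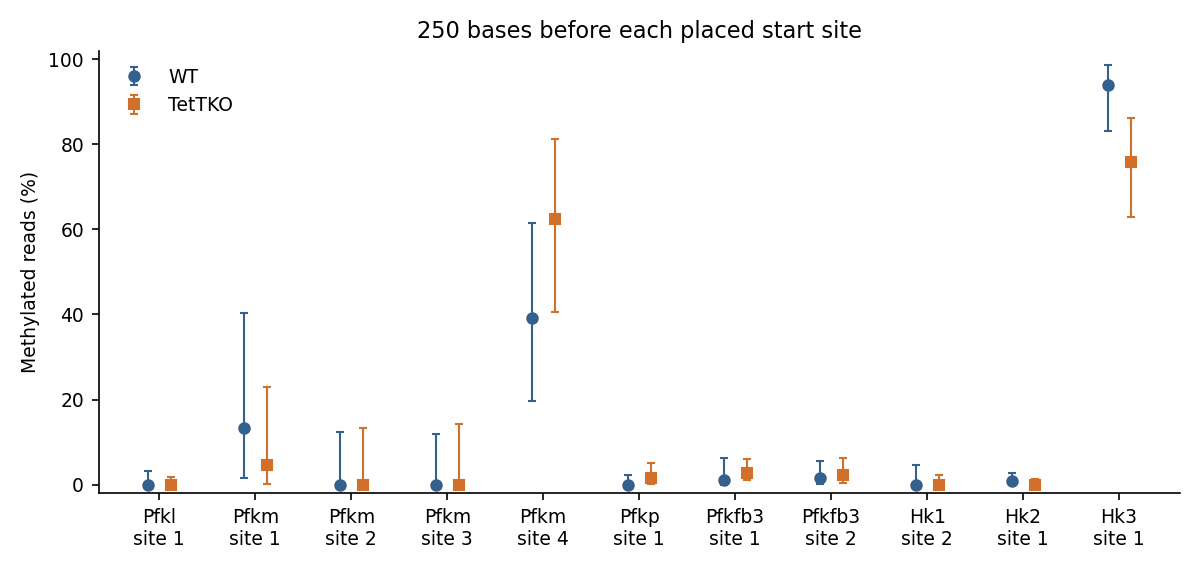
Share of methylated reads in percent, with 95% exact binomial intervals as bars (counting error only), in the 250 bases before each of 11 start sites in WT (circle) and TetTKO (square). Pfkl, Pfkp, Hk1, Hk2 and Pfkfb3 lie below 3% in both libraries, and Hk3 lies at 93.9% and 75.9%.

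The other genes of glycolysis, from a list of the pathway, give the setting of the members. Of 16 counted genes, 5 were higher and 11 lower, 1 of them at least 2-fold lower, with a median log2 difference of -0.09. Over all genes 48.9% were higher, 51.0% lower and 0.847% at least 2-fold lower, with a median of -0.01. Of the 11 lower genes, 4 lie on chromosome 6, and without that chromosome the median of the list was -0.02. The 4 most abundant were Pkm2, the last kinase of the pathway (2175 and 2452 FPKM), the aldolase gene Aldoa (882.64 and 999.24), the mutase gene Pgam1 (749.61 and 790.44) and the kinase gene Pgk1 (730.66 and 741.84). Ldhb, a lactate dehydrogenase subunit on chromosome 6, was at 137.21 and 65.10 FPKM, and its share of the lactate dehydrogenase genes was 23.3% in WT and 10.2% in TetTKO. In 6 other families with a leading isozyme (aldolase, enolase, phosphoglycerate mutase, phosphoglycerate kinase, glyceraldehyde phosphate dehydrogenase and pyruvate kinase), the share of that isozyme differed by at most 0.68 points. In all of these but enolase it held at least 98.8% of the WT sum, so its share had little room to differ. Aldoc was at 10.86 and 5.41 FPKM, and the aldolase share still differed by only 0.68 points. In enolase, Eno1 held 82.1% in WT and 82.7% in TetTKO. Among the other enzymes near the members, 9630033F20Rik, listed by RefSeq as Tigar, which lowers the level of the PFK-1 activator, was at 28.84 FPKM in WT and 13.48 in TetTKO. It also lies on chromosome 6. It was the 1 of 3 counted genes of that list past 2-fold, beside 0.847% of all counted genes at least 2-fold lower.

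Glucose entry had no gene past 2-fold among the 11 counted genes of transport and pyruvate entry, of which 4 were higher and 7 lower, beside 48.9% higher over all genes. Slc2a3, the high-affinity glucose transporter gene on chromosome 6, was at 269.46 and 231.17 FPKM, and Slc2a1, the transporter gene of most cells, at 117.67 and 166.53. Slc2a3 held 69.5% of the summed transporter FPKM in WT and 58.1% in TetTKO. The pyruvate dehydrogenase genes Pdha1 (145.07 and 136.23) and Pdhb (177.49 and 118.25) were lower, and Dlat, of the same enzyme complex, was higher (27.66 and 35.53), and was named after its values were seen.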

How the data were processed

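WT and TetTKO had 1 bisulfite and 1 RNA-seq library each. The submitters' processing notes name mm9, Trim Galore, Bismark 0.7.9, Bowtie and SAMtools, TopHat2 2.0.2 and Cufflinks 2.0.2. What gene models were used is not given in the sources used here. In the deposited bisulfite files stand per CpG the fraction of methylated reads with its 2 counts (methylated reads, and reads in total, at least 5). The deposited RNA files give FPKM per gene, rounded to 2 decimals by the authors. RNA depth is unknown: the lowest values show no steps of whole reads. Therefore FPKM has no counting interval and no count model was used.

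Rows of 1 symbol were summed. Differences were log2((TetTKO + 1)/(WT + 1)), a pseudocount of 1 FPKM, for genes of at least 1 FPKM in either library, and 2-fold was the size called. Methylation was averaged over CpGs, over the interval plus 10 kb, in fixed 1 kb windows of at least 5 CpGs (30 points called), and from pooled reads with exact 95% binomial intervals. RefSeq start-site sequences (GRCm38.p6) of all 7 members were placed where at least 4 listed CpGs, and at least 90% of those listed, fell on CpGs of the sequence. Of 12 sequences, 11 were placed, and Hk1 site 1, with 1 CpG, could not be placed. Relative coverage was taken per locus and in 50 kb bins of at least 50 CpGs.

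The members and lists were chosen with earlier results of these data known. All members are named, with the genes of each pathway list past 2-fold or among its 4 highest in WT. Also named are the 3 nearest genes of each member of at least 1 FPKM. Genes outside these rules (Fbp1, Dlat, Rpia, Aldoc, single marker genes and those of the stretch beside Pfkl) were chosen after their values were seen. The calculations were checked on simulated data. Python 3.11.15, numpy 2.4.6, pandas 2.3.3, SciPy 1.17.1 and matplotlib 3.10.9 were used.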

Additional observations from a re-analysis of the deposited data

How the results depend on the processing

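With 1 library per group, no replicate could be left out, and no alternative measures the error between cultures. No paired analysis was possible because each genotype had 1 library per assay. Of the recomputed values, 86 stayed within the tolerance (1.5 times for RNA values, shares and counts, the counting interval for methylation) and 35 moved. Pseudocounts moved the low genes: Pfkfb3 to 0.75 (0.1 FPKM) and 0.10 (5 FPKM), Hk3 to 0.28 and 0.0086, and Hk1 to -0.12 (5 FPKM). With 0.1 FPKM, 1 member (Pfkm) was 2-fold higher, and at 1.5-fold 2 were lower and 2 higher. Centring on its chromosome put Hk2 at -0.45. Less relative coverage, a setting chosen after seeing the data, Hk2 was at -0.39 and Pfkl at 0.27. Share differences were 5.52 points for Pfkm with that setting. For Hk1, Hk2 and Hk3 they were 0.24, -0.29 and 0.050 points with it, 0.36, -0.41 and 0.053 points after division by the chromosome 6 median, and -0.11, -12.7 and 0.012 points when all 7 members were 1 sum, where Pfkp was at -18.6. Methylation differences were -5.14 points at Pfkm, -2.98 at Hk1 and -0.14 at Hk3 among CpGs of at least 10 reads, and 1.65 at Hk1 and 9.13 at Hk2 over the interval alone. The 12 windows that gained 30 points were 7 with at least 10 CpGs, 3 with at least 10 reads, 38 at 20 points and 29 when centred on the median window. The 0 that lost 30 points were 2 with at least 3 CpGs, 3 with windows shifted by 500 bp, 1 with at least 10 reads and 21 at 20 points. Beyond what each setting changes by construction, the cause was not tested. Taking the mean of CpG fractions per window was also tried after seeing the data. Depth limits the precision of single windows, at a median of 8 and 10 reads per CpG.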

Other observations

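Genes of enzymes that oppose steps of glycolysis formed 1 list, in which Fbp1 and Fbp2 encode those that oppose PFK-1. Fbp2, the muscle-type fructose bisphosphatase, which removes the phosphate that PFK-1 adds, was at 1.51 FPKM in WT and 7.92 in TetTKO, a log2 difference of 1.83. Fbp2 was the 1 of 5 counted genes of that list past 2-fold, beside 1.77% of all counted genes at least 2-fold higher. Fbp1, the liver-type enzyme beside it on chromosome 13, was at 0.57 and 2.00 FPKM, and was named after its values were seen. Pck2, a gene of the first steps of glucose synthesis in mitochondria, was at 15.01 and 8.98 FPKM, the carboxylase gene Pcx at 9.72 and 6.20, and the phosphatase gene G6pc3 at 1.62 and 1.75. The markers of primitive endoderm (9.01 and 34.33 FPKM summed, with 6.44 and 25.35 from Col4a1) and of skeletal muscle (1.19 and 3.30) were higher in TetTKO as well. Whether such cells have a part in the Fbp1 and Fbp2 levels was not tested.

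Of the pentose phosphate pathway, which branches off after hexokinase, 2 of 8 counted genes were higher (25.0%, beside 48.9% over all genes) and 6 lower, none past 2-fold. The median log2 difference of the pathway was -0.22, beside -0.01 over all genes. Without Rpia, its gene on chromosome 6, the median was -0.11. Its most abundant gene, the transaldolase gene Taldo1, was at 268.51 and 198.59 FPKM, the transketolase gene Tkt at 158.22 and 125.66, and Pgls, the lactonase gene, at 66.75 and 52.87. Rpe, an epimerase gene of the same pathway, was at 23.31 and 42.31 FPKM, the other way. Known regulators of glycolytic genes were higher in 9 of 12 cases (75.0%, beside 48.9% over all genes) and past 2-fold in none. Hif1a, the oxygen-sensitive activator, was at 42.89 and 52.07 FPKM, Mycn at 78.72 and 114.22, Lin28a at 105.59 and 120.0, and Esrrb, a nuclear receptor of naive stem cells, at 49.32 and 26.43. Of the hypoxia response genes outside glycolysis, 6 of 13 were higher (46.2%, beside 48.9% over all genes), 7 were lower and none was past 2-fold. The most abundant, the mitophagy gene Bnip3, was at 88.47 and 73.67 FPKM, the histone demethylase gene Kdm3a, on chromosome 6, at 59.66 and 43.19, Higd1a at 34.42 and 32.25, and Bnip3l at 32.64 and 33.28.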
